A study of Mus musculus with 24 samples.

Results

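The genes described here are the 10 members of the MHC class I antigen presentation pathway that were followed in primary mouse brite adipocytes after loss of the long noncoding RNA *Ctcflos*. They were chosen by symbol, 10 of the 52089 gene symbols in the deposited table, and each was represented by the table row with the highest mean over all libraries, out of 75 rows that carry these symbols. Preadipocytes from the stromal vascular fraction of inguinal white fat of young male 129SvEv mice were induced for 2 days, differentiated for 1 day with rosiglitazone, a PPARγ agonist that turns white fat cells towards the brite state, and then transfected with 50 nM of an LNA gapmer. A gapmer is a modified antisense oligonucleotide that has RNase H cut its target RNA. The gapmer was either directed against *Ctcflos* (KD) or nontargeting (NC), and cells were collected after 24 or 72 h, which gave 4 groups of 6 libraries each, named by gapmer and time. Every group had therefore been exposed to rosiglitazone and to an oligonucleotide, and untransfected cells were not part of these libraries.

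MHC class I molecules show short peptides from inside the cell on its surface. A heavy chain (in the mouse H2-K1 and H2-D1, or the nonclassical H2-T23) pairs with the light chain β2-microglobulin, encoded by *B2m*. The peptides are cut by the proteasome, whose interferon-inducible catalytic subunits include Psmb8 and Psmb9, are pumped into the endoplasmic reticulum by the transporter of Tap1 and Tap2, and are loaded with the help of tapasin, encoded by *Tapbp*. Nlrc5 is the transactivator that binds class I promoters through an assembly on their conserved SXY module. Nonimmune cells such as adipocytes carry class I as well, whereas class II is largely a feature of professional antigen-presenting cells.

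Of the 10 genes, 8 lie on chromosome 17, where the mouse H2 complex is found, *B2m* lies on chromosome 2 and *Nlrc5* on chromosome 8 (GENCODE, GRCm38). *Tapbp* occupies chr17:33915899-33929292, *H2-K1* chr17:33996017-34000347, *Psmb9* chr17:34181987-34187764, *Tap1* chr17:34187553-34197225, *Psmb8* chr17:34197721-34201454 and *Tap2* chr17:34203527-34216321, so the transporter and both proteasome genes are direct neighbours. *H2-D1* is at chr17:35262730-35267499, *H2-T23* at chr17:36029773-36032855, *B2m* at chr2:122147686-122153083 and *Nlrc5* at chr8:94434356-94527272.

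RefSeq promoter windows of 300 bases (250 before to 50 after the annotated start, GRCm38.p6) were matched for 8 of the 10 genes, and not for *Tap2* and *Nlrc5*. The windows were searched on both strands for a Y box (CCAAT), an X2 box (TGACG), an interferon response element (GAANNGAAA) and a κB site (GGGANTNCC, where N is any base). The 5 windows below belong to the genes on which the results turn: the 3 chains that rose over time in control cells, *Tap1*, which fell, and *Psmb8*, which was higher after knockdown. Capitals mark a match to one of the motifs, and each sequence is written 5′ to 3′ on the strand of its gene.
H2-K1 (chr17:34000298-34000597, minus strand): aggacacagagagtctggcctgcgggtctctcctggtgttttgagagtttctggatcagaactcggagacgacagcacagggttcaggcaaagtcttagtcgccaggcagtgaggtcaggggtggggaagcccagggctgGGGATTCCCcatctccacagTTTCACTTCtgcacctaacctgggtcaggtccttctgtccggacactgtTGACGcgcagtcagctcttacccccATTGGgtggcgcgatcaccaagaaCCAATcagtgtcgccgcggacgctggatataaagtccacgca
H2-D1 (chr17:35262844-35263143, plus strand): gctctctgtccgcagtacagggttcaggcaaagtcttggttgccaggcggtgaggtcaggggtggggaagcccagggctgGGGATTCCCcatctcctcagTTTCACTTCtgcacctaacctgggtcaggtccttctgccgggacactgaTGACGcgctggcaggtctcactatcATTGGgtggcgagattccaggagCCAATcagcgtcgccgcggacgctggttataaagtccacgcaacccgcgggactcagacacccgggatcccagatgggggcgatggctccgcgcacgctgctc
B2m (chr2:122147437-122147736, plus strand): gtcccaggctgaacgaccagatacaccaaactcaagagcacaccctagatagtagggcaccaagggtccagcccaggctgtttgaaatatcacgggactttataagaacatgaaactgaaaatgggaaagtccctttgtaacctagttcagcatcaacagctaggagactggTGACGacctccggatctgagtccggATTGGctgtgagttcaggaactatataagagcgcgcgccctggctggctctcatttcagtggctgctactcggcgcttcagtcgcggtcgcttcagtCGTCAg
Tap1 (chr17:34187306-34187605, plus strand): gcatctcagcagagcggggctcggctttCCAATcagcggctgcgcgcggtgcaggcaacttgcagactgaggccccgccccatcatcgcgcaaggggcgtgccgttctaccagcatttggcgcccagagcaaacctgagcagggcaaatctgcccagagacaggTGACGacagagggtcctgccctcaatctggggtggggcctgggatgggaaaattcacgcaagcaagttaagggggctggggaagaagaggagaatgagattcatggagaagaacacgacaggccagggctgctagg
Psmb8 (chr17:34197945-34198244, plus strand): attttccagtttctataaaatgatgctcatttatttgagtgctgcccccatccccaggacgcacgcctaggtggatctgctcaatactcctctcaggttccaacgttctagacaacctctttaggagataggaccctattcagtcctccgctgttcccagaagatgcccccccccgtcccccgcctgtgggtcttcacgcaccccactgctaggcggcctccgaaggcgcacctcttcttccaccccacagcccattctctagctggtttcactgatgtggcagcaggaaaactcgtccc

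The windows of *H2-K1* and *H2-D1* held all 4 motifs in the same order and at the same spacing: 20 bases from the start of the κB site to that of the interferon element, 49 from there to the X2 box and 25 from the X2 box to the nearest Y box. Placed on the κB site, the windows shared 176 of 240 aligned bases (73.3%). *B2m* had an X2 box and a Y box 25 bases apart, the same distance as in both heavy chain genes. It held no match to the other motifs as spelled, but its stretch gaaactgaaa, a longer spelling of the interferon element, was not counted. *Tap1* had 1 Y box and 1 X2 box, and its window shared 275 bases with that of *Psmb9*, which starts on the opposite strand, so both genes are described by nearly the same stretch. The *Psmb8* window held none of the 4 motifs as spelled. By the GENCODE positions above, the windows of *Psmb8*, *H2-D1*, *Tapbp* and *Psmb9* lie inside the gene. Sequence before the GENCODE start of these genes was therefore not searched in their own windows. Across all 27025 promoter windows, 37.9% held a Y box, 21.0% an X2 box, 7.56% the interferon element and 3.95% the κB site, against 7, 5, 2 and 2 of the 8 windows here. These are letter matches to the spellings given, which miss other spellings of an element and do not show binding.

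The libraries were 3′ end RNA-seq libraries (BRB-seq), deposited as RPKM, reads divided by transcript length and by the size of the library. Reads recovered from the steps of these values put the depth between 1391832 and 5423839 mapped reads per library (median 3945867). NC 72 h replicates 2 and 3 differed by less than counting noise (0.351 of the expected scatter, where the next closest of 276 pairs stood at 1.94) and were averaged and counted as 1 sample, which left n = 5 in NC 72 h. The labels do not say which *Ctcflos* transcript the gapmer targeted, and the study used gapmers against different ones. The paper's legend for its heat maps at 24 and 72 h names the gapmer against transcript 1. The paper lists AK041254 with transcript 1 and AK079954 with transcripts 3 and 4. On the row AK079954, *Ctcflos* lay between 0 and 0.831 RPKM in KD 24 h against 0.674 to 2.87 in NC 24 h, and between 0 and 0.979 in KD 72 h against 1.48 to 3.86 in NC 72 h. On the row AK041254 the groups overlapped at both times, with medians of 0.0874 in KD and 0.418 in NC at 24 h and of 0 and 1.55 at 72 h. Of the 7 adipocyte markers, *Fabp4*, the fatty acid-binding protein of adipocytes, was at 24084 RPKM or more in every sample, *Cidec*, *Adipoq* and *Retn* averaged 2040, 2003 and 247 RPKM, *Lipe* and *Plin1* averaged 20.8 and 17.0, and *Lep* was at 0 in 21 of 23 samples. Gene-wise deviations from the group means were clustered without the class I genes and without the pathway and marker genes of the lists described below. The tree was cut into 2 branches, a number set for the cut, with 15 samples on one (the larger cluster) and 8 on the other (the smaller cluster). The mean correlation of deviations was 0.10 between samples of the same cluster in different groups and -0.19 between clusters. The smaller cluster held 2 samples of each group (KD 24 h replicates 3 and 4, NC 24 h replicates 5 and 6, KD 72 h replicates 5 and 6, NC 72 h replicates 4 and 5). No label describes this split, and because the class I genes move with it, each comparison below is also given within the clusters.

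**Figure D1:**
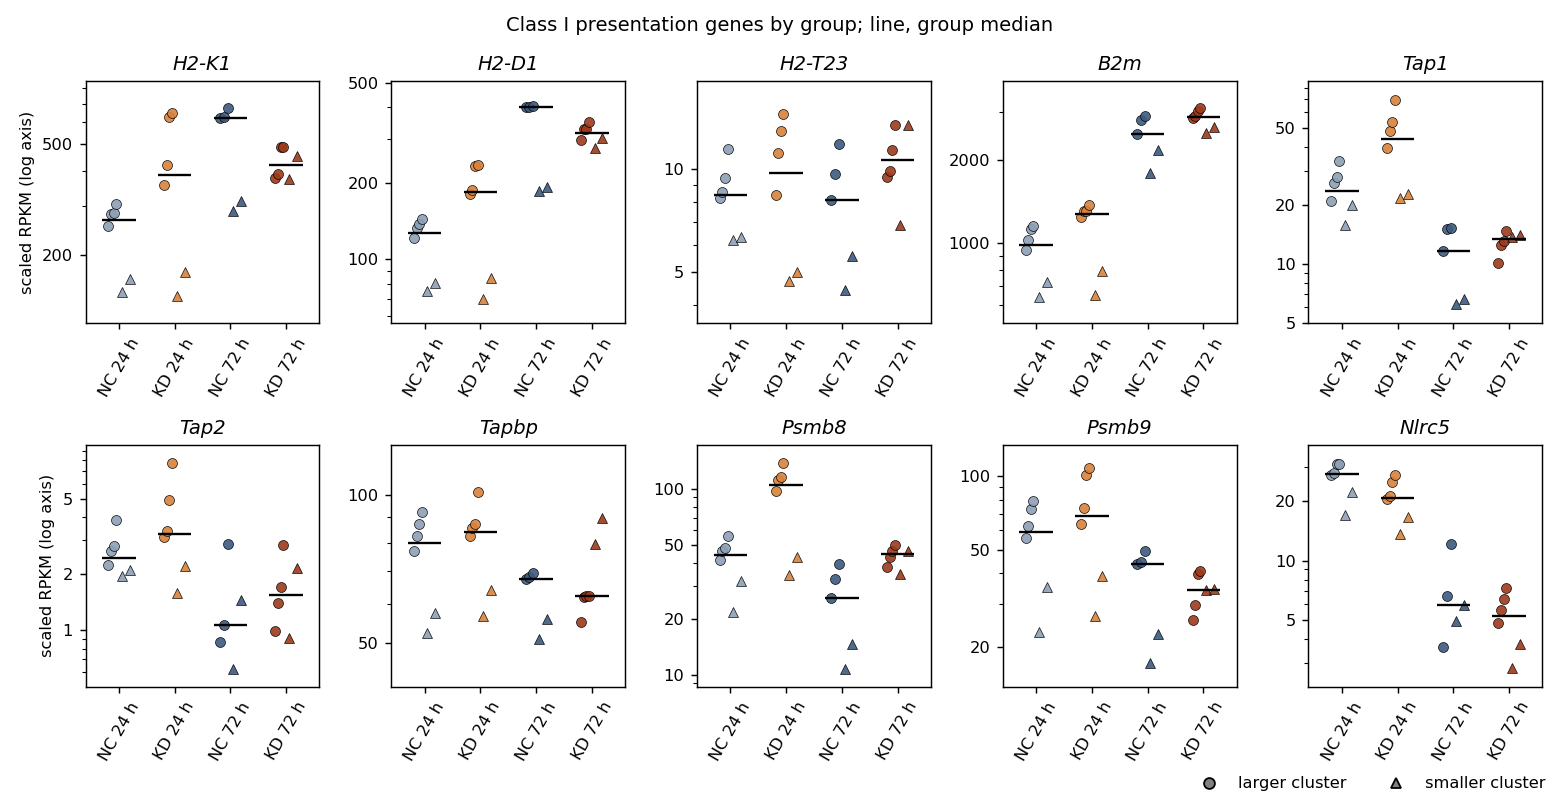
Scaled RPKM of the 10 genes (log axis, one panel per gene) in each sample of the 4 groups, circles for the larger and triangles for the smaller cluster of libraries, the line marking the group median. *H2-D1* and *B2m* stand higher and *Tap1* and *Nlrc5* lower at 72 h than at 24 h in control cells without overlap. In both 24 h groups every triangle lies below every circle for all 10 genes. How many other genes separate in these ways was not counted.

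In the following, levels are deposited RPKM divided by a scaling factor per library (scaled RPKM). Since RPKM of 3′ reads falls with the length of the table row, levels were compared between groups and not between genes. For *Nlrc5*, for instance, a row of 1721 bases averaged 14.4 RPKM and one of 6945 bases 3.59 RPKM from nearly the same reads (2360 and 2374 in all). Differences are log2 changes of scaled RPKM + 0.1 with their standard error from limma, fitted per comparison on all rows that passed a filter on low values, and a gene is called at a Benjamini-Hochberg adjusted p under 0.05 over all of those rows. The study calls replicates of its experiments biological, but the labels do not state whether these came from separate cultures or animals, so the p-values refer to the spread between these samples.

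The largest differences among the class I genes were those over time in control cells. From NC 24 h to NC 72 h, 3 of the 10 genes rose (*H2-K1*, *H2-D1* and *B2m*) and 2 fell (*Tap1* and *Nlrc5*), against 9.20% of 52693 rows called in the whole table, 4.58% as higher and 4.63% as lower. The median log2 change of the 10 genes was -0.43 against 0.00 for all rows tested.

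*B2m*, the light chain shared by all class I molecules, measured 641, 989 and 1152 scaled RPKM (lowest, median and highest) in NC 24 h. In NC 72 h the 5 samples measured 1805, 2183, 2489, 2810 and 2891. All 5 exceeded every 24 h sample, with a log2 change of 1.39 ± 0.16 (limma, adjusted p = 0.000126), a 2.62-fold increase (95% interval 2.06 to 3.32). *H2-D1*, a classical heavy chain, measured 74.9, 127 and 145 in NC 24 h and 186, 194, 401, 402 and 406 in NC 72 h. Again the groups did not overlap, and within NC 72 h the values split into 2 samples at 186 and 194 and 3 at 401 to 406. Its log2 change was 1.41 ± 0.25 (limma, adjusted p = 0.00219).

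*H2-K1*, the other classical heavy chain, measured 147, 266 and 305 in NC 24 h and 288, 312, 622, 627 and 678 in NC 72 h, so that 4 of 5 later samples exceeded all earlier ones. The log2 change was 1.04 ± 0.26 (limma, adjusted p = 0.0193). The call was lost when NC 72 h replicate 1, replicate 6 or the averaged sample was left out (log2 change 0.91 to 0.95, highest adjusted p = 0.0578). The 3 chains were called higher on most of their tested rows, counting the chosen one: 6 of 8 for *H2-K1*, 4 of 4 for *H2-D1* and 3 of 4 for *B2m*. Rows of the same gene can share reads. Reads from near-identical H2 genes can be shared between rows, and the 129 strain carries other H2 alleles than the reference, so the values of *H2-K1*, *H2-D1* and *H2-T23* are those of reads assigned to these rows. *H2-T23*, which encodes the nonclassical Qa-1 heavy chain, measured 6.19, 8.41 and 11.4 in NC 24 h and 4.43, 5.57, 8.11, 9.65 and 11.8 in NC 72 h, with a log2 change of -0.13 ± 0.24 (limma, adjusted p = 0.806).

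*Nlrc5* had the largest change of the 10 genes, and it was a fall. It measured 17.1, 27.6 and 31.1 in NC 24 h and 3.64, 4.93, 5.95, 6.58 and 12.1 in NC 72 h, without overlap. The log2 change was -2.05 ± 0.25 (limma, adjusted p = 0.000179), a 4.13-fold decrease, and all 3 rows tested were called lower. *Tap1*, one chain of the peptide transporter, measured 15.8, 23.7 and 33.9 in NC 24 h and 6.22, 6.61, 11.7, 15.1 and 15.3 in NC 72 h, again without overlap. Its log2 change was -1.19 ± 0.26 (limma, adjusted p = 0.00953), with all 11 rows tested called lower.

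The remaining components of peptide supply had negative estimates that did not pass the test. The log2 changes were -1.01 ± 0.32 for *Tap2*, the other transporter chain (limma, adjusted p = 0.0695), -0.83 ± 0.32 for *Psmb8* (0.129), -0.62 ± 0.34 for *Psmb9* (0.294) and -0.24 ± 0.15 for *Tapbp* (0.374). With the cluster as a term of the fit, a choice made after seeing the data, 3 of these 4 were called lower as well (*Psmb8*, *Psmb9* and *Tap2*), and 8 of the 10 genes in all, against 13.7% of all rows. Because the clusters were found in the same samples, p-values with this term, and those of fits within a cluster, may be too small. Within the larger cluster 3 genes were called higher and 5 lower (10.2% of all rows called), and within the smaller cluster 3 higher and 3 lower (3.39%).

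**Figure D2:**
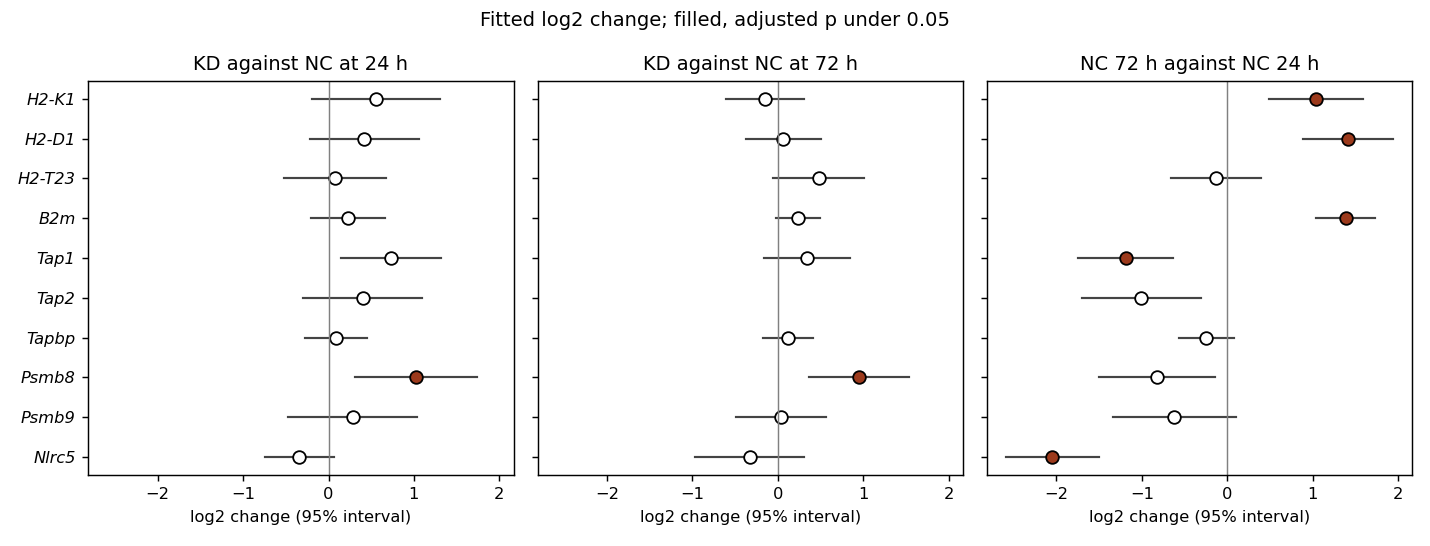
Log2 change of each gene with its 95% interval for KD against NC at 24 h, KD against NC at 72 h and NC 72 h against NC 24 h, filled where the adjusted p was under 0.05. *Psmb8* is the one filled point in both knockdown comparisons (1.03 and 0.95), whereas over time in control cells 3 points are filled on the right and 2 on the left. The chosen row of *Tap2* was below the filter for KD against NC at 72 h and has no point there.

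Knockdown of *Ctcflos* left most class I genes within the spread of the replicates in both comparisons, and the gene that passed the test was the same at 24 and 72 h, the immunoproteasome subunit *Psmb8*. At 24 h, 1 of 10 genes was called (22.7% of 52005 rows in the table were called, 11.1% as higher), and the median log2 change of the 10 was 0.34 against -0.01 for all rows, with 9 positive estimates and 1 negative. At 72 h, 1 of the 9 genes that passed the filter was called (22.4% of 54138 rows, 10.4% as higher), with a median of 0.12 against 0.01 and with 7 positive and 2 negative estimates. The called gene was higher in KD at both times, and 1 such gene is close to the share of all rows called as higher.

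*Psmb8* replaces a constitutive catalytic subunit of the proteasome when cells make immunoproteasomes. At 24 h it measured 34.5, 105 and 139 scaled RPKM (lowest, median and highest) in KD and 21.7, 43.8 and 55.8 in NC, and 4 of 6 KD samples exceeded every NC sample. The 2 that did not, replicates 3 and 4, belong to the smaller cluster. The log2 change was 1.03 ± 0.33 (limma, adjusted p = 0.0386), a 2.04-fold higher level (95% interval 1.24 to 3.33), and 4 of 4 rows were called. The call was lost in 9 of 12 fits that left out 1 library (adjusted p up to 0.0857, log2 change 0.85 to 1.27) and stood only without KD replicate 3, KD replicate 4 or NC replicate 2.

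At 72 h *Psmb8* measured 35.0, 44.6 and 50.1 in KD against 10.7, 14.6, 25.9, 32.7 and 39.2 in NC. Again 4 of 6 KD samples exceeded every NC sample, and the KD values were close together while the NC values spread widely. The log2 change was 0.95 ± 0.27 (limma, adjusted p = 0.0228), a 1.93-fold higher level (1.29 to 2.89), with 4 of 4 rows called. Leaving out NC 72 h replicate 4 ended the call (log2 change 0.80, adjusted p = 0.06), and each of the other 10 omissions kept it. *Psmb9*, the immunoproteasome subunit whose gene adjoins *Tap1*, had log2 changes of 0.28 ± 0.35 at 24 h (limma, adjusted p = 0.591) and 0.04 ± 0.25 at 72 h (0.933). It measured 26.9, 68.7 and 107 in KD 24 h, 23.1, 59.2 and 78.9 in NC 24 h and 25.8, 34.3 and 41.0 in KD 72 h.

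Of the peptide transporter, *Tap1* measured 21.8, 43.7 and 69.5 in KD 24 h against 15.8, 23.7 and 33.9 in NC 24 h, with 4 of 6 KD samples above every NC sample. The log2 change was 0.73 ± 0.27 (limma, adjusted p = 0.0666), above the threshold in the fit of all libraries. Without KD replicate 3 it was 0.88 (adjusted p = 0.027), and without KD replicate 4 it was 0.90 (0.0202). At 72 h the *Tap1* estimate was 0.34 ± 0.23 (0.322). *Tap2* was near the limit of detection, with 13 to 34 reads per library in KD 24 h, and its log2 change at 24 h was 0.40 ± 0.33 (0.391). At 72 h its chosen row was below the filter, with 73 reads in the 6 KD samples and 40.5 in the 5 NC samples, 1 of them an average. Its deposited RPKM was 1.86 ± 0.87 (SD, n = 6) in KD and 1.28 ± 0.81 (SD, n = 5) in NC, which did not differ beyond the spread (exact permutation test, two-sided, p = 0.264, 1 comparison). Of the other *Tap2* rows 2 passed the filter at 72 h, with log2 changes of 0.36 and 0.40, neither called. *Tapbp* had log2 changes of 0.09 ± 0.17 (limma, adjusted p = 0.729) and 0.12 ± 0.14 (0.565).

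Among the chains, *B2m* measured 649, 1277 and 1374 in KD 24 h and 2502, 2877 and 3100 in KD 72 h, and its log2 changes were 0.23 ± 0.20 (limma, adjusted p = 0.44) and 0.23 ± 0.12 (0.184). Its 4 tested rows differed in sign, from -0.26 to 0.23 at 24 h and from -0.62 to 0.23 at 72 h, with none called. *H2-K1* measured 141, 389 and 651 in KD 24 h and 377, 423 and 490 in KD 72 h. The 24 h values of KD ranged below and above those of NC, and those of KD 72 h lay wholly between the lowest and highest NC samples. Its log2 changes were 0.56 ± 0.35 (limma, adjusted p = 0.261) and -0.15 ± 0.21 (0.649). *H2-D1* had 0.42 ± 0.30 (0.322) and 0.06 ± 0.20 (0.862), and *H2-T23* had 0.08 ± 0.28 (0.87) and 0.48 ± 0.25 (0.187). Over the tested rows at 72 h, *H2-K1* ran from -0.15 to 0.08 and *H2-D1* from 0.06 to 0.49, with none called. *Nlrc5* was the one gene with negative estimates at both times, -0.34 ± 0.19 (limma, adjusted p = 0.208) and -0.33 ± 0.30 (0.46).

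On the deposited scale without the scaling factors, the median of all rows at 72 h stood at 0.25 rather than 0.01, and *B2m* (0.48, limma adjusted p = 0.00771) and *H2-T23* (0.73, 0.04) were then called higher with *Psmb8*, while the *H2-K1* estimate turned to 0.10. Relative to that shift, both excesses were 0.23 and 0.48, the values given above. The share of all rows called on the deposited scale is not given here. A difference of the KD effect between 24 and 72 h was tested as an interaction over the 4 groups. None of the 10 genes was called (limma, 0.187% of 59266 rows called), none had an unadjusted p under 0.05, and the lowest adjusted p was 0.569, for *H2-K1*. Within the larger cluster alone, the KD effect was lower at 72 h than at 24 h for 2 of the 10 genes, *H2-K1* (-1.39 ± 0.24, limma, adjusted p = 0.00846) and *H2-D1* (-0.94 ± 0.15, 0.00472), with 1.43% of all rows called. Within the smaller cluster no member was called (limma, 3.2% of all rows called), and the lowest adjusted p was 0.0738, for *H2-D1* (0.62 ± 0.17).

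After the group means were removed, the correlation between 2 members had a median of 0.76 over the 45 pairs (range 0.27 to 0.97, 23 samples), highest for *H2-K1* with *H2-D1*, whose reads can be shared, and lowest for *Tapbp* with *Nlrc5*. With the group means left in, 10 of the 45 pairs were negative. 6 of them were *B2m* with *Tap1*, *Tap2*, *Tapbp*, *Psmb8*, *Psmb9* and *Nlrc5*, and the others were *H2-D1* with *Tap1*, *Tap2* and *Nlrc5*, and *H2-K1* with *Nlrc5*. These are descriptions over samples that share the split into clusters. In KD 24 h and in NC 24 h all 10 genes were higher in every sample of the larger cluster than in any of the smaller (median log2 difference 1.22 and 0.63). In NC 72 h this held for 8 of 10 (median 1.02). In KD 72 h it held for 2 of 10 (*B2m* and *Nlrc5*, median 0.15), and *Tapbp* there was lower in every sample of the larger cluster (-0.48). The share of all rows that separate in this way was not counted, and the clusters were drawn from the same libraries. Median depth was 3809351 reads in the libraries of the larger and 4807345 in those of the smaller cluster, and its part in the split was not tested.

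The knockdown differences read differently in the clusters. At 24 h in the larger cluster (4 KD, 4 NC), 4 genes were called higher against 25.1% of all rows called in either direction: *Psmb8* (1.27 ± 0.14), *Tap1* (0.93 ± 0.20), *H2-K1* (0.83 ± 0.19) and *H2-D1* (0.64 ± 0.12). In the smaller cluster (2 KD, 2 NC) none was called by limma (2.97% of all rows), none of them at an adjusted p below 0.176, and *H2-K1* and *H2-D1* stood at 0.01 ± 0.11 and -0.02 ± 0.12. With the cluster as a term over all 24 h samples, 5 genes were called (27.4% of all rows): *Psmb8*, *Tap1*, *H2-K1* and *H2-D1* higher and *Nlrc5* lower. At 72 h that fit called 1 gene, *Psmb8* (26.6% of all rows).

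At 72 h the heavy chains took opposite signs in the clusters. In the larger cluster (4 KD, 3 NC), *H2-K1* was called lower at -0.57 ± 0.10 (limma, adjusted p = 0.0026) and *H2-D1* lower at -0.32 ± 0.08 (0.0117), with 24.7% of all rows called. In the smaller cluster (2 KD, 2 NC) both were called higher, *H2-K1* at 0.46 ± 0.13 (limma, adjusted p = 0.0477) and *H2-D1* at 0.60 ± 0.12 (0.0112). There 6 of 9 genes were called higher against 10.7% of all rows called in either direction, the others being *Psmb8* (1.67 ± 0.22), *Tap1* (1.10 ± 0.22), *Psmb9* (0.78 ± 0.19) and *Tapbp* (0.66 ± 0.14). The 3 NC 72 h samples of the larger cluster measured 622 to 678 scaled RPKM of *H2-K1* and the 2 of the smaller cluster 288 and 312, whereas the 6 KD 72 h samples measured 377 to 490, those of the smaller cluster 377 and 454. *Psmb8* had a positive estimate in both clusters at both times, 0.54 ± 0.20 in the smaller cluster at 24 h and 0.45 ± 0.15 in the larger at 72 h, neither of which passed the test (limma, adjusted p = 0.176 and 0.0518). The difference between clusters was not tested. These fits rest on few samples, and as the clusters were found in the same samples, their p-values may be too small.

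**Figure D3:**
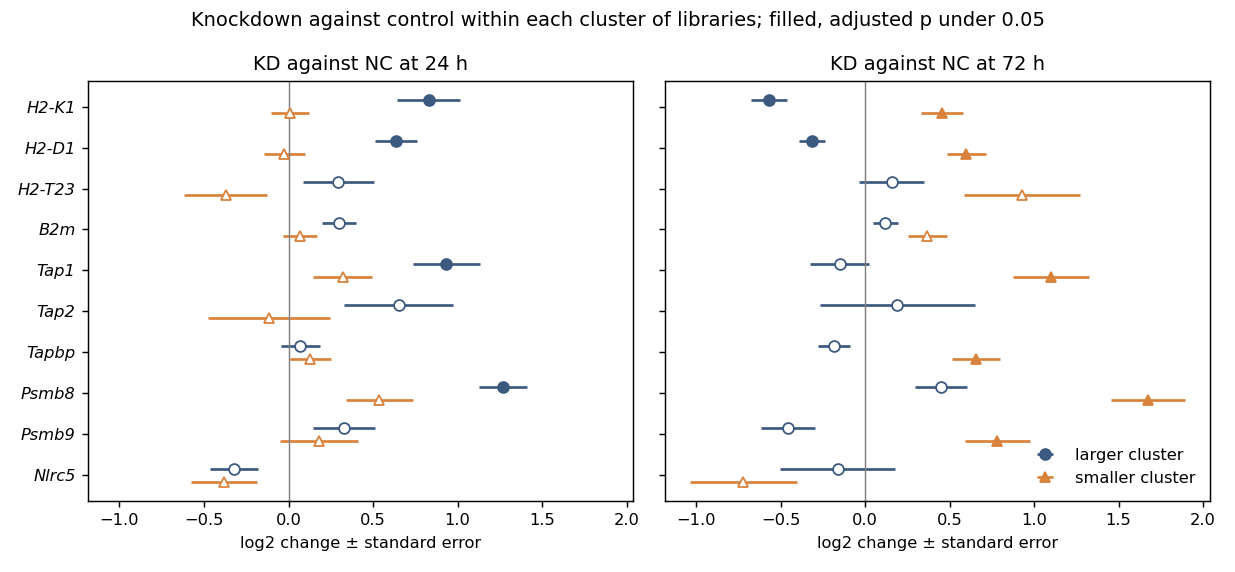
Log2 change of KD against NC (± standard error) at 24 h and 72 h, fitted separately within the larger (circles) and the smaller (triangles) cluster of libraries, filled where the adjusted p was under 0.05. At 72 h the points of *H2-K1* and *H2-D1* lie on opposite sides of 0, at -0.57 and -0.32 in the larger and 0.46 and 0.60 in the smaller cluster. *Psmb8* lies to the right of 0 in all 4 fits. The clusters were found in the same samples, so these p-values may be too small.

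Other genes of the pathway were taken from fixed lists. Among 7 proteasome partners and activators, *Psmb10*, the third interferon-inducible catalytic subunit, fell over time in control cells (-1.47 ± 0.22, limma, adjusted p = 0.000671) and was higher in KD at 72 h (0.84 ± 0.16, 0.00191), with 0.52 ± 0.26 at 24 h (0.166). At 72 h it measured 61.6, 71.9 and 85.7 scaled RPKM in KD and at most 54.5 in NC, without overlap. *Psmb6*, one of the constitutive catalytic subunits, was lower in KD at 24 h (-0.73 ± 0.15, limma, adjusted p = 0.00463) and at 72 h (-0.36 ± 0.09, 0.0123). These were the only genes of the list called in the knockdown comparisons. Of the proteasome activator, *Psme1* fell over time (-0.62 ± 0.09, 0.000827) and had 0.04 ± 0.13 and 0.23 ± 0.09 in KD at 24 and 72 h (0.855 and 0.0881). *Psme2* was called in none of these comparisons by limma (-0.73 ± 0.26 at 24 h, adjusted p = 0.0536, 0.02 ± 0.35 at 72 h, 0.976, and -0.93 ± 0.32 over time, 0.093).

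Of 15 listed genes for transcription of class I genes, 14 passed the filter. At 24 h 3 were called higher in KD, *Nfyb*, a subunit of the CCAAT-binding factor NF-Y (1.02 ± 0.14, limma, adjusted p = 0.000363), *Rela*, a subunit of NF-κB (0.98 ± 0.26, 0.015), and *Irf9*, the DNA-binding subunit of the interferon-stimulated complex ISGF3 (0.65 ± 0.13, 0.004), and 1 was called lower, *Rfxank*, of the RFX complex on X boxes (-0.95 ± 0.27, 0.0212). At 72 h *Irf7*, a regulator of type I interferon genes (1.05 ± 0.17), *Irf9* (0.75 ± 0.16) and *Rela* (0.52 ± 0.15) were called higher and *Irf3* (-0.81 ± 0.21) lower. Over time in control cells 3 of 14 were called, all lower: *Stat2* (-1.53 ± 0.26), *Irf1* (-1.02 ± 0.24) and *Irf9* (-0.50 ± 0.15). *Irf1*, an interferon-induced activator, was not called in KD (0.32 ± 0.24 and 0.18 ± 0.19, limma, adjusted p = 0.359 and 0.531), nor was *Rfx5* (0.31 ± 0.46 and 0.22 ± 0.40, 0.652 and 0.732). *Rfx5* also did not pass over time (-0.67 ± 0.31, 0.216).

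Of 16 other class I and class I-like genes, 9 or 10 passed the filter in a comparison. *Cd1d1*, which presents lipids, and *Fcgrt*, the neonatal Fc receptor, were lower in KD at 24 h (-0.77 ± 0.13 and -0.71 ± 0.16) and at 72 h (-1.02 ± 0.13 and -0.81 ± 0.13). *H2-T24* was lower in KD at 24 h (-1.81 ± 0.51, limma, adjusted p = 0.0198) and *H2-T22* higher at 72 h (0.50 ± 0.13, 0.0137). Over time in control cells *H2-Q7* (2.63 ± 0.51, 0.00448) and *H2-Q10* (1.45 ± 0.38, 0.0265) rose as the classical chains did, and *H2-T24* (-2.40 ± 0.23, 3.6e-05) and *Cd1d1* (-0.34 ± 0.10, 0.0452) fell. As with the members, reads may be shared among H2 genes. In the list of 7 peptide loading and trimming genes, the chaperones *Calr*, *Canx* and *Hspa5* were lower both in KD at 24 h (-0.38, -0.26 and -0.35) and over time in control cells (-0.45, -0.33 and -0.25), and the peptide-trimming enzyme *Erap1* was lower in KD at 72 h (-0.77 ± 0.18). Of 9 interferon receptor and feedback genes, 8 passed the filter, of which *Jak1*, a kinase of interferon receptors, was lower in KD at both times (-0.69 ± 0.20 and -0.88 ± 0.19) and *Ifnar2*, a chain of the type I receptor, rose over time (0.93 ± 0.23). Of 9 class II genes 1 passed the filter (*H2-Ab1*), and it was not called in any of these comparisons.

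Markers of other cells were followed beside these results. Summed over 13 of 14 listed macrophage and leukocyte genes found in the table, the level was 16.1 to 107 RPKM in KD 24 h and 32.2 to 158 in NC 24 h. At 72 h it was 34.4 to 47.0 in KD and 46.0 to 163 in NC. The medians in this order were 37.6, 52.2, 42.4 and 60.8, lower in KD than in NC at both times. *Lyz2* had the highest mean of the list, 35.5 RPKM, against 9.31 for *Csf1r* and 6.34 for *Cd68*, so it weighed most in the sum. *Ptprc*, the common leukocyte antigen, was at 0 in 18 of 23 samples, and *C1qa*, *C1qb*, *C1qc*, *Laptm5* and *Mrc1* were at 0 in 8 to 16. *Cd68* (1.23 ± 0.33 and 1.94 ± 0.47) and *Csf1r* (1.29 ± 0.26 and 1.24 ± 0.23) were nevertheless called higher in KD at 24 and 72 h, and *Lyz2* was lower at 72 h (-3.94 ± 0.63). Over time in control cells *Csf1r* was called higher, 1 of the 4 leukocyte genes tested there. All 6 endothelial genes were below the filter. Of 6 adipocyte markers tested, *Adipoq* and *Lipe* were lower in KD at 24 h and *Adipoq*, *Fabp4* and *Retn* at 72 h, and none was higher. In control cells *Adipoq* and *Fabp4* were also called lower at 72 h than at 24 h. Their list summed to 35916 to 53952 RPKM in KD 24 h, 47179 to 50703 in NC 24 h, 27695 to 40832 in KD 72 h and 33770 to 43839 in NC 72 h. Most of this sum was *Fabp4* (mean 36912 RPKM). Among 5 stromal progenitor markers tested, *Col1a1* was lower in KD at 24 h (-0.46 ± 0.12) and 72 h (-1.15 ± 0.38) and *Cd34* higher at 72 h (2.29 ± 0.49), while *Col1a1* (0.82 ± 0.17) and *Thy1* (0.74 ± 0.14) rose over time in control cells. The summed stromal list, most of it *Col1a1* (mean 8773 RPKM), ran from 5391 to 7402 RPKM in KD 24 h and 7749 to 8885 in NC 24 h. At 72 h it ran from 3934 to 12811 in KD and 9090 to 20508 in NC. Fewer cells of a type and less RNA per cell cannot be told apart in such bulk libraries, and the part of these markers in the class I values was not tested.

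The genes most like the mean profile of the 10 members were ranked by Pearson correlation over the 23 samples. Over all samples these were *Ccdc85b* (r = 0.89), *H2-K2* (0.89), *Fosl1* (0.89), *Sdha* (0.88) and *Fam46a* (0.87), of which *H2-K2* can share reads with *H2-K1*. After the group means were removed they were *Fam46a* (0.96), *Psmb10* (0.95), *Fosl1* (0.95), *Ccdc85b* (0.94) and *Ero1l* (0.94). These values share the libraries, their depth and the split into clusters.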

How the data were processed

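BRB-seq libraries (24, 6 per group) were made with barcoded oligo-dT primers and Tn5 tagmentation. The authors deposited RPKM, reads per transcript length and library size, for 168326 RefSeq, Ensembl and GenBank rows aligned to the NCBI Reference Sequence Database with Genomatix software and tested with DESeq2. The aligner version and genome build were not given in the sources used here. Depth and row lengths were recovered from the steps of 1 read: 96367 rows got a length, which equalled the annotated one for 90.8% of 21081 Ensembl rows. NC 72 h replicate 6 alone stood on finer steps, 5926374 for 2963187 reads, and the reason is not known. RPKM were divided by a trimmed mean factor per library (30% of log ratios and 5% of levels trimmed at each end) and log2(value + 0.1) was fitted with limma 3.58.1 (R 4.3.3) with a mean-variance trend. Rows needed the equivalent of 10 reads of the median library in as many samples as the smaller group and 15 reads in all. The fit was tested on simulated data. Tap2 at 72 h was tested with scipy 1.17.1 (Python 3.11.15).

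Same-numbered samples of KD and NC did not deviate together, but several fell in different clusters, so pairing by number stays undecided. The members, lists and rules were chosen with earlier results of these data known. Named from the lists are Irf1, Rfx5, Psmb10, Psme1 and Psme2, up to 4 genes per list and comparison called with a log2 change of at least 1, and further called genes chosen after their values were seen. A further gene of the transcription list is not reported here. Alternatives were other pseudocounts, scalings and filters, a replicate block, 1 row per gene, RefSeq rows, voom on recovered reads, separate NC 72 h replicates, leaving out each library, and fits within or with the clusters.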

Additional observations from a re-analysis of the deposited data

How the results depend on the processing

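The number of class I genes called was 1 for KD against NC at 24 h, 1 at 72 h, 5 for NC 72 h against NC 24 h and 0 for the interaction. The shares of all rows called were 22.7%, 22.4%, 9.20% and 0.187%. Those of the cluster fits are given above. For the other settings the shares are not given, so these counts show only how the calls depend on the setting. At 24 h the number became 0 without a filter, 0 with the replicate block, 4 in the larger and 0 in the smaller cluster, 5 with the cluster as a term, and 0 to 2 when 1 library was left out. At 72 h it became 3 on the deposited scale, 2 in the larger and 6 in the smaller cluster, and 0 to 1 when 1 library was left out (0 without NC 72 h replicate 4). Over time in control cells it became 8 in the larger cluster and 8 with the cluster as a term, and 4 to 5 when 1 library was left out. The interaction gave 2 in the larger cluster, and 0 to 0 when 1 library was left out. With the replicate block the counts were 0, 1, 5 and 0, and Psmb8 at 24 h was the one call it changed (adjusted p = 0.0607). The labels do not say whether the numbers pair the samples. Correlations of same-numbered deviations ran from -0.20 to 0.15 at 24 h and from -0.15 to 0.14 at 72 h. They cannot decide this, since several same-numbered samples fell in different clusters. The ratio of Tap2 at 72 h was 1.45 on deposited RPKM and 1.44 on recovered reads scaled to depth.

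Signs turned for estimates that were not called with all samples. At 24 h this was so in the smaller cluster for H2-D1 (-0.024), H2-T23 (-0.37) and Tap2 (-0.11), with voom on recovered reads for H2-T23 (-0.0051), and when 1 library was left out for H2-T23 (-0.075 to 0.25) and Tapbp (-0.0073 to 0.18). At 72 h it was so on the deposited scale (0.10) and in the smaller cluster (0.46, there called, limma adjusted p = 0.0477) for H2-K1, in the larger cluster for H2-D1 (-0.32, there called, 0.0117), Tap1 (-0.15), Tapbp (-0.18) and Psmb9 (-0.46), with separate NC 72 h replicates for Psmb9 (-0.053), and when 1 library was left out for H2-D1 (-0.11 to 0.17) and Psmb9 (-0.19 to 0.18). Over time in control cells H2-T23 turned in the larger cluster (0.054) and when 1 library was left out (-0.30 to 0.0503). Between tested rows of the same gene, signs turned in the knockdown comparisons for B2m at 24 and 72 h, and for H2-K1 and Psmb9 (-0.02 to 0.08) at 72 h. The cause of these changes was not tested. The read depth limits Tap2, H2-T23 and Nlrc5 at 72 h most, at 4 to 88 reads per library.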
